A study of Rattus norvegicus with 12 samples.

Results

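Sorafenib hearts of day 28 were compared with sorafenib hearts of day 14. The comparison takes 6 of the 12 libraries of the study: the sorafenib libraries numbered 2, 3 and 4 in the table of day 28, and those numbered 5, 6 and 7 in the table of day 14, joined by gene. All rats were wild-type male Sprague-Dawley (SD) animals of 180 to 200 g, whose age the labels do not give. They were given sorafenib at 50 mg/kg, or an equal volume of deionized water, by gavage daily for 14 or 28 days, and the heart was taken. The 6 water libraries, 3 of each day, were analysed the same way and serve as the background of time. Each library was total heart RNA with ribosomal RNA removed, read in pairs of 150 bases. A rat at day 28 was older as well as longer on the drug, and each day was counted in its own table. Length of treatment, age of the animals and table cannot be told apart in either treatment arm.

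Sorafenib is a cancer drug that blocks several kinases, among them the RAF kinases, the VEGF receptor KDR, the PDGF receptors, KIT and RET. VEGF receptors keep the capillaries of the heart alive and RAF passes growth signals to ERK, which switches on immediate early genes such as Fos and Egr1 within minutes. Injury of heart muscle and raised blood pressure are known adverse effects of such drugs. Bulk RNA cannot tell fewer cells of a type from less RNA per cell.

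The sorafenib libraries of day 14 held 13746366, 17232818 and 16697467 counts, and those of day 28 held 17479046, 1036483 and 16785038. Replicate 3 of day 28 is thus shallow. Levels are given as CPM, the count scaled to a fixed library size, normalized by TMM factors, and 1 count in that library is worth 0.835 CPM. In it 16908 genes had counts against 21899 to 22748 in the other 11 libraries. The first principal component (34.9%) parted this library from the rest. Leftover ribosomal precursor Rn45s took 1.255% and 1.643% of counts in replicates 2 and 3 of day 28 and 0.842% in replicate 5 of day 14. The samples were heart by their markers: all 12 cardiomyocyte markers were detected, at a summed 39785 to 63296 CPM in the sorafenib libraries of day 14 and 48289 to 83464 CPM at day 28. Whether replicates were separate animals is not in the labels, and the p-values rest on the spread among the libraries alone.

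Of 18174 genes tested, 604 (3.32%) passed the threshold between day 14 and day 28 in sorafenib hearts: 412 (2.27%) rose and 192 (1.06%) fell. The threshold was an adjusted p of 0.05 in edgeR's quasi-likelihood test, fitted on all 12 libraries. The median log2 fold change of all genes was -0.02. The 3 libraries of day 28 lay all above those of day 14 for 401 of the 412 genes that rose and all below for 191 of the 192 that fell. Over all genes, such separation held for 10.9% upward and 11.3% downward. Among called genes that averaged at least 2 CPM and had separate groups, the 10 named for the largest rise were the egg coat gene Zp4, the muscle gene Abra, the immediate early genes Egr1, Fos, Nr4a3 and Nr4a1, the adhesion receptor Adgra1, the clock gene Arntl and 2 RNAs of the mitochondrial genome. Those named for the largest fall included the apelin receptor Aplnr, the Ras activator Rasgrf2, the potassium channel Kcna4 and the retinoic acid enzyme Aldh1a3. Leaving out 1 library moved the count between 175 (without sorafenib day 14 replicate 6) and 822 (without water day 28 replicate 4). Without sorafenib day 28 replicate 4 it was 197, and without the shallow replicate 3 it was 620.

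Water hearts changed over the same interval, in 1546 genes (8.51%), of which 1055 (5.8%) rose and 491 (2.7%) fell. Of the 412 genes that rose in sorafenib hearts, 320 rose in water hearts too, which is 77.7% of the sorafenib list and 30.3% of the water list. Their median log2 fold changes were 1.09 in sorafenib and 1.11 in water. Of the 192 that fell, 80 fell in water (41.7% and 16.3% of the lists), with medians of -1.13 in sorafenib and -0.62 in water. Each list was chosen on its own arm, so a smaller median in the other arm follows in part from the choice. No gene (0%) passed edgeR's test of the difference between both day changes, where the smallest adjusted p was 0.717. At an unadjusted p under 0.05 there were 803 genes (4.42%), DESeq2 called 9 and limma-voom called 0. A call in sorafenib hearts alone therefore does not show a change particular to the drug.

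**Figure D1:**
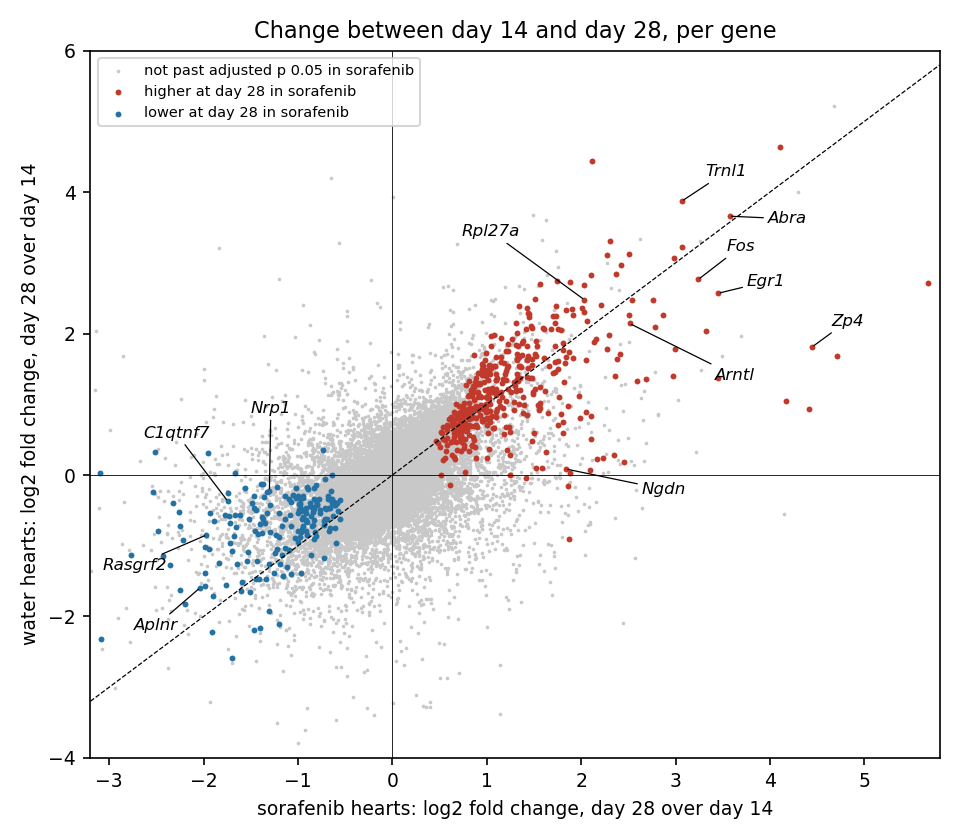
Each point is a gene, placed by its log2 fold change from day 14 to day 28 in sorafenib hearts (horizontal) and in water hearts (vertical), with the dashed line marking equal change. Genes that rose in sorafenib (red) have medians of 1.09 in sorafenib and 1.11 in water, and genes that fell (blue) have medians of -1.13 and -0.62. Of the 38 genes outside the axes, 7 passed the threshold in sorafenib.

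Immediate early genes are transcription factors and regulators that cells induce within minutes of a stimulus, before new protein is made. Of 29 measured, 16 rose and 0 fell in sorafenib hearts, against 2.27% and 1.06% of all genes. Their median log2 fold change was 1.27. In water hearts, where 22 rose against 5.8% of all genes, it was 1.43. Egr1, a zinc finger transcription factor at chr18:26463333-26465531 in mRatBN7.2, stood at 4.98, 1.84 and 2.78 CPM in the day 14 libraries (replicates 5, 6 and 7, the order used throughout) and at 31.9, 29.2 and 41.8 CPM in those of day 28 (replicates 2, 3 and 4). The groups lay far apart, and the log2 fold change was 3.45 ± 0.53 (SE, n = 3 per group; adjusted p = 0.00565). Fos, the partner of Jun proteins in the AP-1 factor (chr6:105121170-105124036), was at 4.56, 1.03 and 2.66 CPM and then at 30.9, 25.9 and 21.1 CPM, a log2 fold change of 3.24 ± 0.44 (adjusted p = 0.00256). Its lowest library of day 28 was above its highest of day 14.

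The orphan nuclear receptors Nr4a1, Nr4a2 and Nr4a3 rose together, by log2 fold changes of 2.76 ± 0.46, 2.13 ± 0.4 and 2.86 ± 0.58. Nr4a1 was at 24.9, 4.88 and 11.2 CPM at day 14 and 69.7, 97.7 and 111 CPM at day 28. Within day 14, replicate 6 was lowest for these 3 receptors and for Fos and Egr1. The AP-1 members Junb (2.21 ± 0.32), Jund (1.35 ± 0.23) and Fosl2 (1.43 ± 0.29) rose as well, and so did Maff (1.3 ± 0.29), a small partner of leucine zipper factors. Among genes that limit such a response, Dusp1, the phosphatase that switches off MAP kinases, rose by 0.9 ± 0.18 and Zfp36, which marks cytokine mRNAs for decay, by 0.96 ± 0.2. Ier2 (1.16 ± 0.22), Ccn1 (1.6 ± 0.26), a secreted matrix protein, Klf2 (0.92 ± 0.2), a flow-responsive factor of endothelium, Klf4 (1.32 ± 0.24) and Myc (1.07 ± 0.26) complete the 16. For Myc the groups overlapped, since the shallow library was at 5.01 CPM. Egr1, Fos, Nr4a1, Junb, Jund and Ccn1 passed in each fit that left out 1 of the 12 libraries. The count for the list was 6 without sorafenib day 14 replicate 6, 10 without day 14 replicate 7 and 9 without day 28 replicate 4, and Nr4a3 had adjusted p of 0.0711, 0.0784 and 0.0933 in those fits. Without day 14 replicate 5 the log2 fold changes were larger, at 3.84 for Fos, 3.53 for Nr4a1 and 3.49 for Nr4a3.

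In water libraries of day 28, Egr1 and Fos were higher still: Egr1 was at 72.4, 83.6 and 76.2 CPM and Fos at 46.9, 50.9 and 54.8 CPM, from 4.69, 8.13 and 26.3 CPM and 4.27, 5.69 and 12.5 CPM at day 14. The change in sorafenib differed from that in water by 0.88 ± 0.69 for Egr1 and 0.48 ± 0.58 for Fos on the log2 scale (edgeR adjusted p of the difference 0.999 for both). Of the 29 genes, 5 had an unadjusted p under 0.05 for the difference, all 5 toward a smaller rise in sorafenib hearts, against 4.42% of all genes in either direction.

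**Figure D2:**
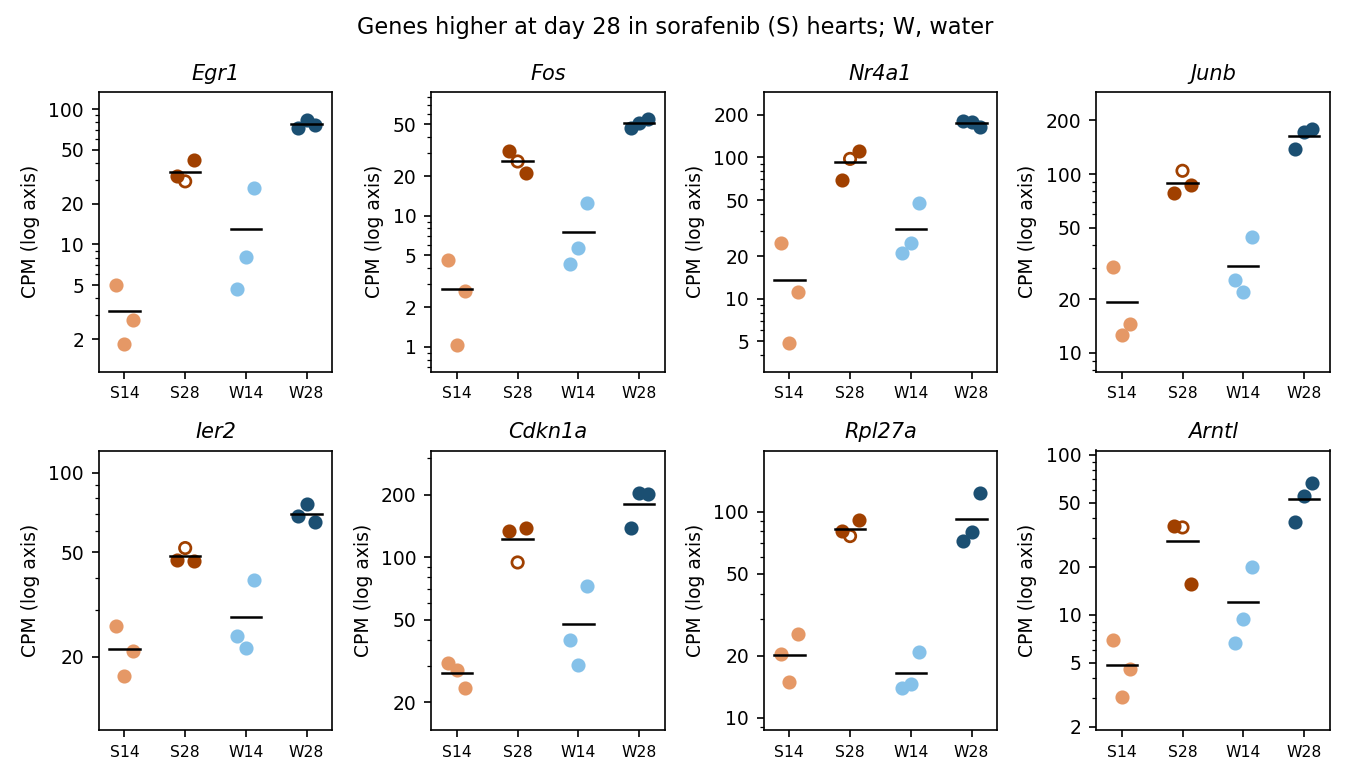
TMM-normalized CPM on log axes for 8 genes that rose between day 14 and day 28 in sorafenib hearts (S14, S28), with the water hearts beside them (W14, W28); each point is a library, the open circle is the shallow library and bars are group means. In each gene shown, all 3 sorafenib libraries of day 28 lie above all 3 of day 14, and so do the water libraries.

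The promoters of 12 of the 16 immediate early genes that rose were matched by symbol in a RefSeq table of the assembly GRCr8, which is not the assembly of the counts. The CArG box, the element that serum response factor binds, was found in the 250 bases before the start of Egr1 and Zfp36, 2 of the 12, against 1.5% of 27457 promoters of that length. The cAMP response element TGACGTCA, which reads the same on both strands, was found in 4 (Dusp1, Ier2, Jund and Maff), against 1.7%. Of these promoters 4 are shown 5′ to 3′ because they carry the elements of the genes described above, with the matches in capitals. Egr1 (chr18:26736828-26737077, plus strand) has CArG boxes that begin 105 and 83 bases before the start, and that of Zfp36 (chr1:92799109-92799358, minus strand) begins 32 bases before it. The response element begins 66 bases before the start of Ier2 (chr19:40399123-40399372, plus strand) and 124 bases before that of Dusp1 (chr10:17184603-17184852, plus strand). A match describes the sequence only.
Egr1: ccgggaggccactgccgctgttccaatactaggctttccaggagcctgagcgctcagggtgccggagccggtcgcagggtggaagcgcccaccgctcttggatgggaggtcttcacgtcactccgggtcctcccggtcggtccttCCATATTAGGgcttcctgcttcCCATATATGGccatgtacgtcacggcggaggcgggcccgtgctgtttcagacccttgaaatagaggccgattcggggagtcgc
Zfp36: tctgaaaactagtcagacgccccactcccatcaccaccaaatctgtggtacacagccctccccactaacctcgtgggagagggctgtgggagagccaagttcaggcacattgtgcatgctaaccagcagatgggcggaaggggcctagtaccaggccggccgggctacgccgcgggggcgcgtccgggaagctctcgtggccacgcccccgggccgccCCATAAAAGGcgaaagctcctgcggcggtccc
Ier2: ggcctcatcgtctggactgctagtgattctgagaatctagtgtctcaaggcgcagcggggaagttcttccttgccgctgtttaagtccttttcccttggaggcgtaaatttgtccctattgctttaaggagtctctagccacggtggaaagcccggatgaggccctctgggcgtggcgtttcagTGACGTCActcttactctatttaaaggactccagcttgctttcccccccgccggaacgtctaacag
Dusp1: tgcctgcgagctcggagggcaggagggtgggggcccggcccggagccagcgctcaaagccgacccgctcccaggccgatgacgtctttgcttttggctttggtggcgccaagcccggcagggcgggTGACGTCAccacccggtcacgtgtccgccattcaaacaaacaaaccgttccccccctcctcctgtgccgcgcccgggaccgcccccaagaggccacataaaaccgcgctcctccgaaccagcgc

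Some genes of the stressed heart and some targets of glucocorticoids rose. Of 21 measured genes of myocardial stress, 6 rose and 0 fell (median log2 fold change 0.87, against 1.1 in water), and of 25 glucocorticoid-responsive genes 8 rose and 0 fell (median 0.64, against 1.31 in water), where 2.27% of all genes rose and 1.06% fell. The lists share Cdkn1a, Mt1 and Mt2A. The 8 glucocorticoid-responsive genes were these 3, Cebpb, Cebpd, Irs2, Sgk1 and Dusp1, and Dusp1 is also 1 of the 16 immediate early genes. Other members of that list, among them Fkbp5, Tsc22d3, Klf9 and Per1, were not called. Cdkn1a, which encodes the cell cycle inhibitor p21 (chr20:7149177-7159727), stood at 31.1, 28.7 and 23.5 CPM at day 14 and 134, 94.4 and 138 CPM at day 28, with the days well apart and a log2 fold change of 2.15 ± 0.28 (adjusted p = 0.00242). Cebpd, a transcription factor of the acute phase, went from 11.5, 9.59 and 5.93 CPM to 41.8, 40.1 and 31.4 CPM (2.06 ± 0.27, adjusted p = 0.00242). Its relative Cebpb rose by 1.88 ± 0.34, and the insulin signalling adaptor Irs2 by 1.84 ± 0.33. Sgk1, a kinase that glucocorticoids induce, rose by 1.08 ± 0.21. The count of glucocorticoid targets was 4 without sorafenib day 14 replicate 6 or 7 and 3 without day 28 replicate 4.

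The metallothioneins Mt1 and Mt2A, which bind zinc and copper, rose by 1.74 ± 0.4 and 2.27 ± 0.5. Mt1 was at 4.38, 4.14 and 5.93 CPM at day 14 and 8.51, 32.6 and 14.7 CPM at day 28, where the shallow library was the highest of the 3. Lgals3, a galectin of macrophages and injured heart, rose by 1.03 ± 0.24, and Hmox1, which degrades heme, by 1.49 ± 0.38. In the antioxidant list, 6 of 25 rose (2.27% of all genes did) and 0 fell. In water hearts 5 rose, against 5.8% of all genes. The 6 in sorafenib hearts were Srxn1, which repairs oxidized peroxiredoxins (1.44 ± 0.23), Txnrd1 (0.72 ± 0.18), Sod1 (0.98 ± 0.25), Hmox1 and both metallothioneins. Exons of Txnrd1 and Sod1 overlap another gene, and the counts carry no strand. Thbs1, which encodes thrombospondin 1, was the only one of 41 matrix genes past the threshold (2.03 ± 0.5), and without the shallow library its adjusted p was 0.104. Without the shallow library the stress list had 3 genes past the threshold and the antioxidant list 5, not all of them among the 6 above, since Mt2A (adjusted p = 0.0508) and Hmox1 (0.0975) did not pass. The antioxidant count was 2 without sorafenib day 14 replicate 5 or 7, 3 without day 28 replicate 2 and 1 without day 14 replicate 6 or day 28 replicate 4. Among the 12 fits without 1 library, Hmox1 lost its call in 9, Txnrd1 in 8, Lgals3 in 7, Thbs1 in 7 and Sod1 in 6, with adjusted p of up to 0.17, 0.17, 0.113, 0.155 and 0.163. Cdkn1a, Cebpd, Irs2 and Srxn1 passed in each fit that left out 1 library, whereas the stress list fell to 1 without sorafenib day 14 replicate 6, without day 14 replicate 7 or without day 28 replicate 4.

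Genes of the integrated stress response rose in small number. Atf4, the transcription factor of that response, was at 40.5, 36.9 and 45 CPM at day 14 and 66.7, 68.5 and 87.1 CPM at day 28 (0.87 ± 0.16, adjusted p = 0.00996). In water hearts Atf4 rose too (0.69 ± 0.15, edgeR adjusted p = 0.0141). Of 25 members of the amino acid list 3 rose, against 2.27% of all genes, and in water hearts 4 rose, against 5.8%. The 3 were Slc3a2 (1.77 ± 0.33) and Slc7a5 (1.61 ± 0.33), the 2 chains of a transporter for large neutral amino acids, and Mthfd2 (1.09 ± 0.21), a mitochondrial enzyme of one-carbon metabolism. The count for the amino acid list in sorafenib hearts was 3 without the shallow library, and 1 without sorafenib day 14 replicate 6, day 14 replicate 7 or day 28 replicate 4. Chac1, a glutathione-degrading enzyme, was at 0.06, 0.23 and 0.0605 CPM and then 0.978, 0.835 and 1.93 CPM, where the value of the shallow library is 1 count (3.45 ± 0.64, adjusted p = 0.0103). Eif4ebp1, the translation repressor that mTOR inactivates, rose by 1.21 ± 0.19 (adjusted p = 0.00608). Atf4 and Chac1 were the 2 that rose of 20 genes of the unfolded protein and integrated stress response, and none of the 20 fell. In water hearts 2 of the 20 rose, against 5.8% of all genes. Of 21 heat shock genes, the small heat shock protein Hspb1 (1.32 ± 0.25) and the co-chaperone Bag3 (1.19 ± 0.26) rose, against 2.27% of all genes. In water hearts 5 of the 21 rose, against 5.8% of all genes. Without sorafenib day 28 replicate 4, Atf4 had an adjusted p of 0.0567, Slc7a5 0.0915 and Mthfd2 0.0785, and the log2 fold change of Slc3a2 was 1.03.

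Ribosomal proteins build the cytosolic ribosome, and 29 of 86 measured rose against 2.27% of all genes. The median log2 fold change of the 86 was 0.66. In water hearts, where 51 rose against 5.8% of all genes, it was 0.95. Rpl27a, of the large subunit, stood at 20.3, 14.9 and 25.5 CPM at day 14 and 80.2, 76 and 90.9 CPM at day 28 (2.03 ± 0.24, adjusted p = 0.00147). Rps28, of the small subunit, was at 12.7, 10.9 and 16.9 CPM and then 39.6, 50.1 and 46.3 CPM (1.73 ± 0.22). Rpl35 rose by 2.11 ± 0.34, Rpl13 by 1.43 ± 0.2 and Rpl10a by 1.22 ± 0.17. The single member that fell, Rpl22l1 (-0.91 ± 0.21), is a paralog of Rpl22. Ribosomal protein genes have near-identical copies in the genome, so how reads were shared among copies is uncertain. The count was 11 without sorafenib day 14 replicate 6, 12 without day 28 replicate 4, 18 without day 14 replicate 5 and 19 without day 28 replicate 2. Of 73 mitochondrial ribosomal proteins 4 rose (Mrpl52, Mrpl54, Mrpl23 and Mrps26, by 0.74 to 1.46), and of 49 nuclear genes of oxidative phosphorylation 3 rose (Cox6b1 1.43 ± 0.31, Ndufb10 1.05 ± 0.25 and Ndufb3 0.9 ± 0.21). In water 22 and 19 rose, against 5.8% of all genes. Without sorafenib day 14 replicate 6, day 28 replicate 2 or day 28 replicate 4, only 1 mitochondrial ribosomal gene and 0 genes of oxidative phosphorylation passed, and without the shallow library 5 and 6 did.

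These genes have short transcripts, and the day change varied with length. Among genes above 5 CPM, the median log2 fold change in sorafenib hearts was 0.69 for 130 genes with up to 500 bases of exon, 0.33 for 474 genes of 500 to 1000 bases and -0.10 for 1790 genes of over 8000 bases. In water hearts the medians were 1.05, 0.63 and -0.16. The cytosolic ribosomal genes have a median exon length of 693 bases against 3218 for all genes tested. Over all genes tested, at any level, the median for up to 500 bases of exon was -0.14 in sorafenib hearts and -0.30 in water. Each library's trend with length was fitted over all these genes. Its removal therefore does not take out the pattern seen above 5 CPM in the shortest genes, and cannot show which calls depend on it. After that removal, 24 ribosomal genes rose and 1 fell, and 16 immediate early genes rose. RNA integrity and fragment length were not given in the sources used here, and their part in the pattern was not tested.

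**Figure D3:**
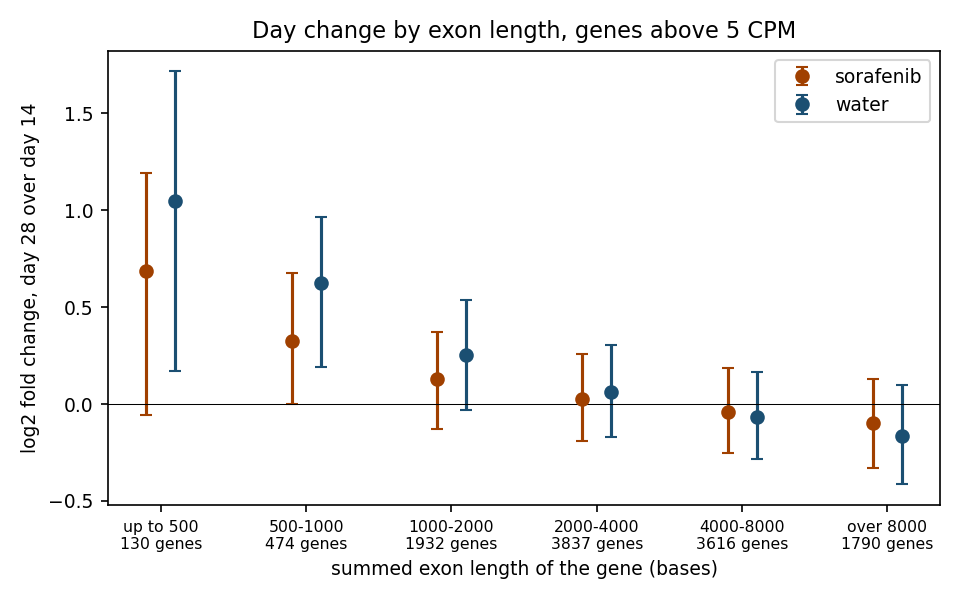
Median log2 fold change from day 14 to day 28 (points, bars from the lower to the upper quartile) for genes above 5 CPM in 6 bins of summed exon length. In both treatment arms the median falls from the shortest genes, at 0.69 in sorafenib and 1.05 in water, to the longest, at -0.10 and -0.16.

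RNAs of the mitochondrial genome were higher at day 28, a group singled out after its values were seen. The tables hold 2 ribosomal RNAs and 22 transfer RNAs of that genome. Both ribosomal RNAs and 8 of the transfer RNAs rose, of 21 that could be tested, and 0 fell, where 2.27% of all genes rose and 1.06% fell. In water hearts 12 of the 21 rose and 0 fell, where 5.8% of all genes rose and 2.7% fell. The median log2 fold change of the 21 was 1.06 in sorafenib and 1.52 in water. Trnl1, a leucine transfer RNA, was at 34.2, 15.5 and 49.3 CPM at day 14 and 265, 256 and 307 CPM at day 28 (3.07 ± 0.42, adjusted p = 0.00256), and in water hearts it rose by 3.87. The others included Trnm (1.76 ± 0.2), Trnd (1.8 ± 0.3) and Trnw (1.76 ± 0.24). The 16S ribosomal RNA mt-Rnr2 was at 685, 363 and 652 CPM and then at 13217, 1545 and 2288 CPM, so replicate 2 of day 28 stood well above its 2 companions. Its log2 fold change was 3.33 ± 0.65 (adjusted p = 0.0148), and without that library it was 1.76. Ribosomal RNA was removed before sequencing, so these values also carry what the removal left. Transfer RNAs are very short, and how well these libraries retain them was not tested. The transfer RNAs named here passed in each fit without 1 library, whereas mt-Rnr2 lost its call without sorafenib day 14 replicate 5, 6 or 7 (adjusted p from 0.0535 to 0.0743).

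Several receptors of the vessel wall were lower at day 28. Of 27 VEGF-responsive and tip cell genes, 4 fell and 3 rose, where 1.06% of all genes fell and 2.27% rose, and the median of the list was -0.09. In water hearts 1 fell and 7 rose, with a median of 0.18, where 2.7% of all genes fell and 5.8% rose. The 4 were receptors: Aplnr, the apelin receptor; Nrp1 and Nrp2, the neuropilins that act as coreceptors of VEGF and semaphorins; and Kdr, the main VEGF receptor and a kinase that sorafenib inhibits. Aplnr (chr3:70217407-70221052) was at 81.1, 66.6 and 50.2 CPM at day 14 and 19.7, 18.4 and 11.4 CPM at day 28, a log2 fold change of -2.04 ± 0.39 (adjusted p = 0.0127). It fell in water hearts as well, from 115, 235 and 83.3 CPM to 46.9, 33.1 and 63.4 CPM (-1.59 ± 0.35, adjusted p = 0.0139). Nrp1 (chr19:56359455-56514628) went from 356, 349 and 421 CPM to 167, 194 and 101 CPM (-1.3 ± 0.22, adjusted p = 0.00787), with no overlap. In water hearts Nrp1 was at 445, 506 and 458 CPM and then 364, 357 and 485 CPM, a change of -0.22 ± 0.22 with an adjusted p of 0.568. The difference between the arms passed edgeR's test for neither gene. For Aplnr it was -0.44 ± 0.51 (edgeR adjusted p = 0.999), and the smallest edgeR adjusted p of any gene was 0.717.

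Kdr was at 201, 124 and 189.9 CPM at day 14 and 91.1, 126 and 76.6 CPM at day 28, where the shallow library at 126 CPM was just above the lowest library of day 14. Its log2 fold change was -0.84 ± 0.21 (adjusted p = 0.0442), and Nrp2 changed by -0.96 ± 0.25 (adjusted p = 0.0471). Both calls were marginal: Kdr lost its call in 9 and Nrp2 in 10 of the 12 fits without 1 library, with adjusted p up to 0.148 and 0.163 without sorafenib day 28 replicate 4 or, for Kdr, day 14 replicate 5 (0.133). The 3 that rose were Hes1, a Notch target (1.55 ± 0.22), Adamts1, a secreted protease (1.14 ± 0.23), and Nr4a1, given above. Ret, the receptor of GDNF-family ligands and a target of sorafenib, went from 17.2, 14.6 and 15.3 CPM to 6.9, 6.68 and 5.25 CPM (-1.35 ± 0.23, adjusted p = 0.00732). In water hearts Ret fell too (-0.67 ± 0.2, adjusted p = 0.0484). Ret and Kdr were 2 of 18 sorafenib target kinases that fell, and 0 rose, where 1.06% of all genes fell. In water hearts 2 of the 18 fell and 0 rose, where 2.7% of all genes fell. Kdr was not among the 2 that fell in water hearts. Among them Flt1, another VEGF receptor (0.4 ± 0.21, adjusted p = 0.31), and Ddr2, a collagen receptor (-0.49 ± 0.21, adjusted p = 0.223), missed the threshold. Without sorafenib day 28 replicate 4, Aplnr had an adjusted p of 0.0796, and without day 14 replicate 5 of 0.0596.

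Endothelial markers did not move one way, where 1.06% of all genes fell and 2.27% rose. Of the 19 endothelial markers, Emcn, a sialomucin of capillaries (-0.97 ± 0.19), and Kdr fell and Eng, a coreceptor of TGF-beta family ligands (0.96 ± 0.2), rose. Their summed level was 2253 to 2781 CPM at day 14 and 2503 to 2841 CPM at day 28. Chosen after their values were seen, the caveolae genes Cav1 (388, 354 and 379 CPM at day 14 and 162, 157 and 189 CPM at day 28, -1.14 ± 0.19) and Cav2 (-0.98 ± 0.19) and the receptor Calcrl (-0.97 ± 0.19), which binds adrenomedullin, fell too. Kcnj8, the pore of the ATP-sensitive potassium channel of mural cells, fell by 0.9 on the log2 scale. It was the only one of 16 pericyte and smooth muscle markers past the threshold, and their summed level was 2218 to 2567 CPM and then 2557 to 2876 CPM. Cav1 passed in each fit without 1 library, and it also fell in water hearts (-0.62 ± 0.18, adjusted p = 0.05, just inside the threshold). Emcn, Eng and Kcnj8 did not pass without sorafenib day 14 replicate 7 or day 28 replicate 4 (adjusted p from 0.0504 to 0.0746). Eng did not pass without day 14 replicate 6 (0.0979) or the shallow library (0.0555) either. Without day 28 replicate 2, Emcn (0.0571), Kcnj8 (0.0554), Cav2 (0.0587) and Calcrl (0.0543) did not pass.

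**Figure D4:**
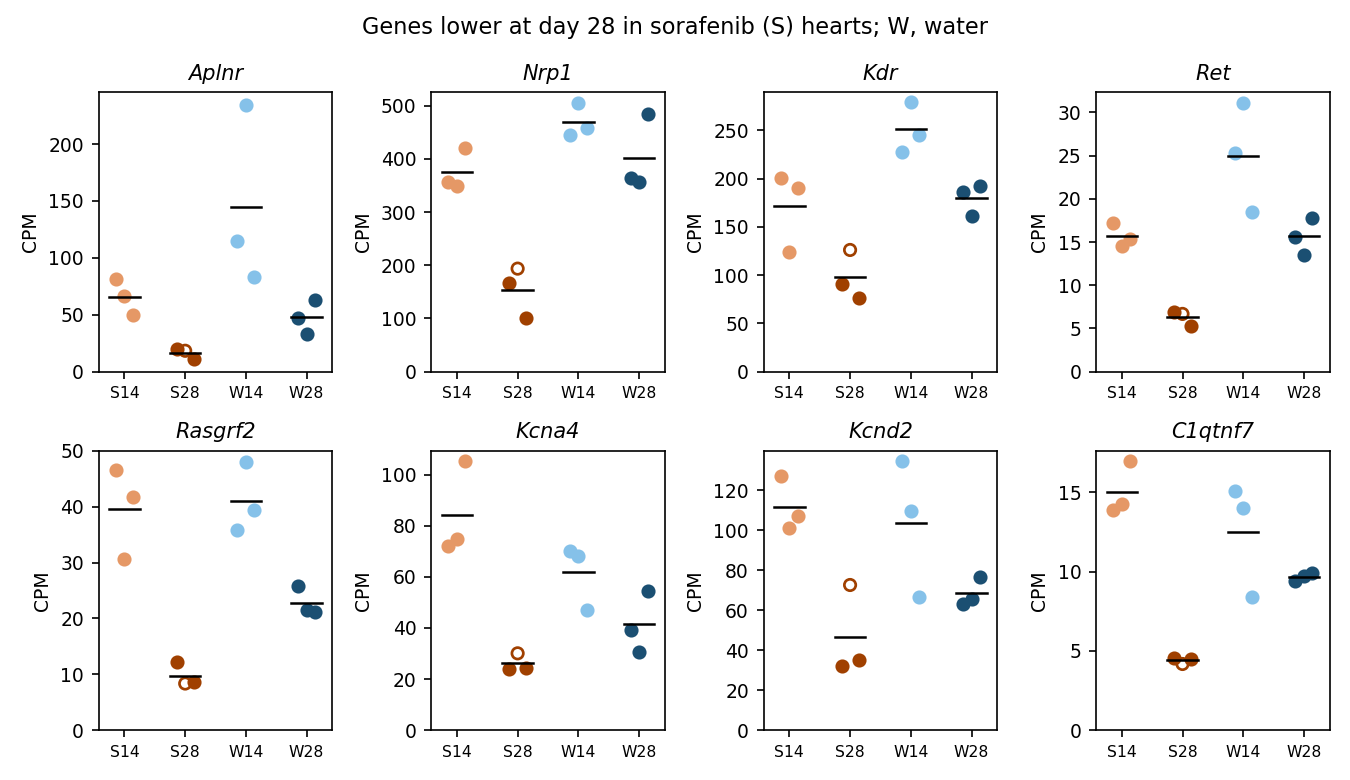
TMM-normalized CPM for 8 genes that fell between day 14 and day 28 in sorafenib hearts (S14, S28), with the water hearts beside them (W14, W28); each point is a library, the open circle is the shallow library and bars are group means. Apart from Kdr, no sorafenib library of day 28 reaches the sorafenib libraries of day 14.

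Potassium channels of the action potential were among the genes that fell. Kcna4 (Kv1.4) and Kcnd2 (Kv4.2) carry the transient outward current that starts repolarization in the rat heart, and Kcnq1 carries the slow delayed rectifier. Kcna4 (chr3:93756399-93778004) was at 72.2, 75 and 105 CPM at day 14 and 23.9, 30.1 and 24.4 CPM at day 28, a log2 fold change of -1.73 ± 0.24 (adjusted p = 0.00256) that passed in each fit without 1 library. Kcnd2 was at 127, 101 and 107 CPM and then 31.9, 72.7 and 34.9 CPM (-1.38 ± 0.29, adjusted p = 0.0198), with the shallow library the highest of day 28. Kcnq1 was at 201, 234 and 237 CPM and then 145, 134 and 151 CPM (-0.64 ± 0.16, adjusted p = 0.0405). These were 3 of 28 ion channels (1.06% of all genes fell), 0 rose, and the list's median was -0.22 in sorafenib and 0.21 in water. In water hearts the changes of Kcna4 and Kcnd2 were -0.58 ± 0.22 and -0.6 ± 0.27 (adjusted p = 0.121 and 0.191). The difference for Kcna4 was -1.15 ± 0.32 with an edgeR adjusted p of 0.999. Exons of Kcnd2 and Kcnq1 overlap another gene, and Kcnd2 lost its call without sorafenib day 28 replicate 4 (adjusted p = 0.0934), day 28 replicate 2 (0.0845), day 14 replicate 5 (0.0667) or day 14 replicate 6 (0.053). Kcnq1 lost its call in 7 of the 12 fits without 1 library, with an adjusted p of up to 0.13, and after removal of the trend with length (0.104). The count for the list was 1 without sorafenib day 14 replicate 6, day 28 replicate 2 or day 28 replicate 4.

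Other genes named for the largest fall had varied roles. Rasgrf2 (chr2:23113613-23361537), which activates Ras and Rac in response to calcium, went from 46.5, 30.7 and 41.8 CPM at day 14 to 12.3, 8.35 and 8.57 CPM at day 28 (-1.97 ± 0.21, adjusted p = 0.00139). In water it went from 35.8, 48.1 and 39.4 CPM to 25.8, 21.6 and 21.1 CPM (-0.85 ± 0.19, adjusted p = 0.0149). C1qtnf7, a secreted C1q/TNF-related protein, was at 13.9, 14.2 and 17 CPM and then 4.54, 4.18 and 4.52 CPM (-1.74 ± 0.24, adjusted p = 0.00256). The libraries within each day were close, but the value of the shallow library is only 5 counts. Aldh1a3, which makes retinoic acid, was at 10.6, 8.33 and 6.9 CPM and then 2.59, 3.34 and 1.66 CPM, where the shallow library holds 4 counts (-1.93 ± 0.34, adjusted p = 0.00886). Tll1, a protease that processes procollagen (-1.9 ± 0.36), the small GTPase Rasl12 (-1.83 ± 0.35), the membrane protein Lrrc3b (-1.72 ± 0.4) and the checkpoint ligand Pdcd1lg2, known as PD-L2 (-1.7 ± 0.36), also fell, and exons of Tll1 overlap another gene. Epha4, an ephrin receptor on the list of MAPK output, fell by 1.23, and on that list of 20 Egr1 rose, where 1.06% of all genes fell and 2.27% rose. Rasgrf2 and C1qtnf7 passed in each fit without 1 library. Without sorafenib day 28 replicate 4, Aldh1a3, Tll1, Rasl12, Lrrc3b, Pdcd1lg2 and Epha4 had adjusted p between 0.0648 and 0.15, and without day 28 replicate 2 the log2 fold change of Lrrc3b was -2.47.

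Among the genes that rose furthest, Abra, an actin-binding protein of striated muscle, was at 5.58, 5.17 and 8.65 CPM at day 14 and 31, 17.5 and 169 CPM at day 28, with replicate 4 far above the others. Its log2 fold change was 3.58 ± 0.68 (adjusted p = 0.0164) and that in water hearts 3.66 ± 0.68, and without sorafenib day 28 replicate 4 it was 2.02 (adjusted p = 0.0295). Zp4, which encodes an egg coat protein, was at 1.02, 1.44 and 0.726 CPM and then 43.7, 10.02 and 11.8 CPM (4.45 ± 0.86, adjusted p = 0.0142), with replicate 2 highest, and without that library the log2 fold change was 3.38. Adgra1, an adhesion receptor, was at 0.42, 0.632 and 0.363 CPM and then 3.8, 8.35 and 1.59 CPM (2.97 ± 0.59, adjusted p = 0.0143). Each of these lost its call without day 14 replicate 5 or 7 (adjusted p from 0.0509 to 0.0858), Zp4 and Abra without day 14 replicate 6 (0.0647 and 0.0859), and Zp4 and Adgra1 without day 28 replicate 2 (0.0602 and 0.0503). Tbx5, a transcription factor of heart chamber identity and of the atrial marker list, was at 19.97, 27.9 and 35.6 CPM at day 14 and 58.9, 55.1 and 86.4 CPM at day 28 (1.29 ± 0.21), and was the only one of 12 atrial markers past the threshold (2.27% of all genes rose).

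Of 41 interferon-stimulated genes, 2 fell and 0 rose, where 1.06% of all genes fell: Ifi44l (26.3, 12.9 and 10.05 CPM at day 14 and 5.58, 5.85 and 4.45 CPM at day 28, -1.68 ± 0.34, adjusted p = 0.0168) and Mx2, an antiviral GTPase (46.8, 20.9 and 12.6 CPM and 6.39, 7.52 and 9.83 CPM, -1.74 ± 0.43, adjusted p = 0.0418). For both, replicate 5 was the highest library of day 14. The list's median was -0.48 in sorafenib and -0.53 in water. Mx2 shares exon sequence with Tmprss2 and lost its call in 7 of the 12 fits without 1 library, with adjusted p of up to 0.146 without sorafenib day 28 replicate 2. Without day 14 replicate 5 its log2 fold change was -1.06. Ifi44l lost its call without day 28 replicate 4 (0.0933) or replicate 2 (0.0547).

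Clock genes vary with the time of day, and the labels do not give the hour of tissue collection. BMAL1, the product of Arntl, drives Per, Dbp and Nr1d1 through E-boxes, and Arntl itself peaks in antiphase to them. Arntl was at 6.96, 3.04 and 4.6 CPM at day 14 and 35.7, 35.1 and 15.6 CPM at day 28 (2.51 ± 0.45, adjusted p = 0.00996), and it rose in water by 2.14 ± 0.41. Without sorafenib day 14 replicate 6 its adjusted p was 0.0517. Npas2, its partner, was at 6.84, 5.97 and 8.29 CPM and then 26.6, 27.6 and 8.3 CPM (1.48 ± 0.39, adjusted p = 0.0536). In both genes replicate 4 was the lowest library of day 28. Of 13 repressors and outputs, Nr1d1 rose (0.66 ± 0.16) and Nr1d2 (-0.72 ± 0.18) and Tspan4 (-0.91 ± 0.23) fell, where 2.27% of all genes rose and 1.06% fell. The list's median was -0.72 in sorafenib and -1.07 in water, where 8 fell against 2.7% of all genes. The calls of Nr1d1, Nr1d2 and Tspan4 were lost in 7 or 8 of the 12 fits without 1 library, and exons of Nr1d1 overlap Thra.

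Per3 was at 173, 174 and 149 CPM at day 14 and 70.4, 63.5 and 89.6 CPM at day 28 (-1.13 ± 0.3, adjusted p = 0.0566), and Dbp at 86.5, 118 and 124 CPM and 43.4, 24.2 and 65.5 CPM (-1.22 ± 0.34, adjusted p = 0.0648); neither passed. In water hearts Per3 fell by 2.19 and Dbp by 2.4. Ciart, another repressor, was at 10.4, 12.8 and 13.6 CPM and 10.1, 6.68 and 24 CPM in sorafenib hearts (0.28 ± 0.41, adjusted p = 0.767) and fell by 1.8 in water. Per1 (0.51 ± 0.21), Per2 (-0.53 ± 0.26) and Clock (0.34 ± 0.13) had adjusted p of 0.197, 0.296 and 0.17. The difference between the arms was 1.06 ± 0.42 for Per3, 1.18 ± 0.47 for Dbp and 2.08 ± 0.6 for Ciart, and the edgeR adjusted p was 0.999 for each. The part of sampling time in the other day changes was not tested.

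**Figure D5:**
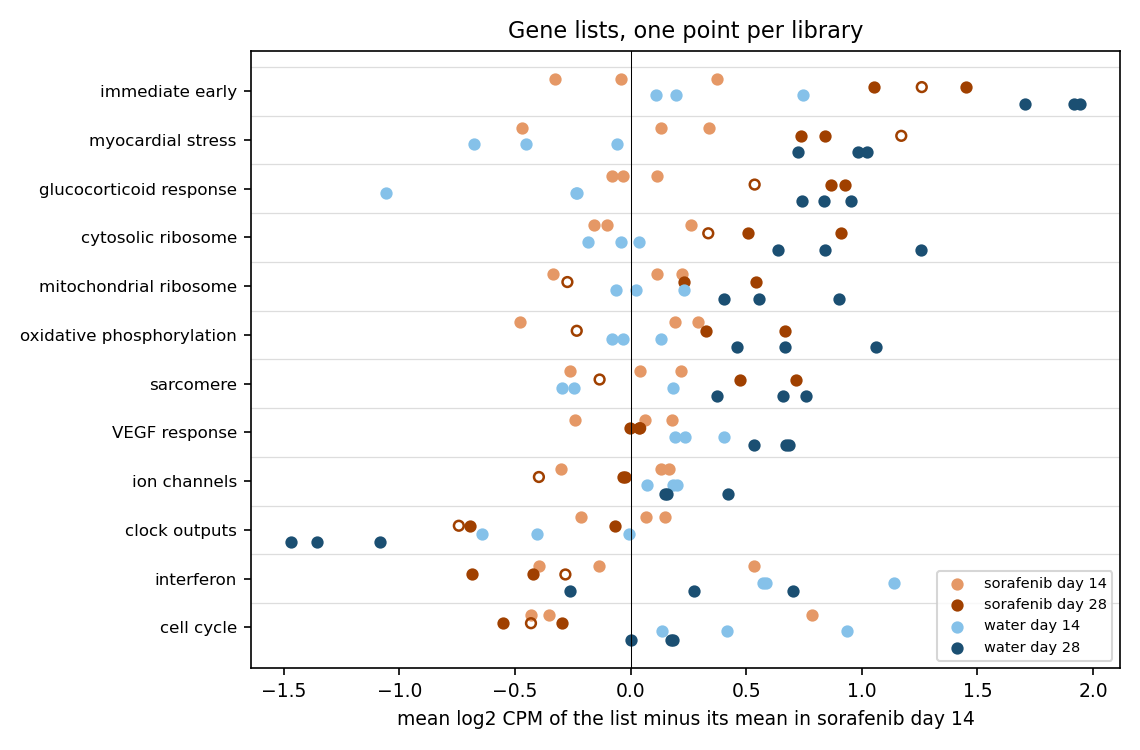
Mean log2 CPM of the tested members of 12 gene lists in each library, relative to the mean of the sorafenib day 14 libraries at 0; the open circle is the shallow library. For immediate early, myocardial stress, glucocorticoid response and cytosolic ribosome genes the sorafenib libraries of day 28 lie above all those of day 14 (immediate early genes at 1.05, 1.26 and 1.45), and for interferon and cell cycle genes the days overlap.

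Of the 37 genes of the sarcomere list 0 were called by edgeR, 10 had an unadjusted p under 0.05 (all 10 upward), DESeq2 called 6 and voom 0, and without the shallow library edgeR called 5. Over all 18174 genes tested, edgeR called 604, 3476 had an unadjusted p under 0.05, DESeq2 called 1324 and voom 936. The list's median was 0.35 in sorafenib and 0.67 in water, where 8 rose against 5.8% of all genes. Myh6, the fast myosin heavy chain of the rat ventricle, was at 16268, 25599 and 22731 CPM at day 14 and 30224, 18641 and 33360.4 CPM at day 28 (0.35 ± 0.31, adjusted p = 0.588). Myh7, the slow isoform that returns in the stressed heart, was at 2900.2, 3117 and 5505 CPM and 5952, 6050.4 and 8514 CPM (0.83 ± 0.29, adjusted p = 0.13), and in water it went from 1738, 1455 and 1262 CPM to 4697, 4569 and 6846 CPM (1.85 ± 0.3, adjusted p = 0.00229). The difference between the arms for Myh7 was -1.02 ± 0.41 (edgeR adjusted p = 0.999). The sarcomere members nearest the threshold were Mypn (0.76 ± 0.2), Tnni3 (0.91 ± 0.27), Ldb3 (0.78 ± 0.24) and Tnnt2 (0.69 ± 0.22), with adjusted p of 0.0593, 0.0834, 0.0893 and 0.11.

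The natriuretic peptides of the strained heart spread widely within groups. Nppa was at 64.7, 37.7 and 212 CPM at day 14 and 295, 149 and 58.4 CPM at day 28 (0.69 ± 0.88, adjusted p = 0.73), and Nppb at 74, 108 and 167 CPM and 83, 78.5 and 36.1 CPM (-0.84 ± 0.36, adjusted p = 0.212); the days overlapped for both. Rbm20, the splicing factor of titin, was at 264, 361 and 323 CPM and 286, 236 and 276 CPM (-0.24 ± 0.19, adjusted p = 0.523). Of 24 genes made up of Rbm20 and its splicing targets, 0 were called, 4 had an unadjusted p under 0.05, and DESeq2 called 3. Over all 18174 genes tested, 3476 had such a p and DESeq2 called 1324. Ttn itself changed by 0.01 ± 0.32 and Camk2d, a calcium-dependent kinase, by -0.36 ± 0.2. Counts per gene do not show splicing. Of 21 calcium handling genes 0 were called (3 at an unadjusted p under 0.05, DESeq2 1), of 36 splicing factors 0 (11, DESeq2 6) and of 24 lipid synthesis genes 0 (2, DESeq2 1); voom called 0, 5 and 0.

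Of 38 cell cycle genes 0 were called, 8 had an unadjusted p under 0.05 (all downward), DESeq2 called 1, voom called 0, and the median was -0.55. Over all 18174 genes tested, 3476 had such a p in either direction, DESeq2 called 1324 and the median was -0.02. Top2a, the topoisomerase of dividing cells, was at 32.3, 7.75 and 7.44 CPM at day 14 and 4.6, 6.68 and 6.58 CPM at day 28 (-1.47 ± 0.52, adjusted p = 0.139), with replicate 5 of day 14 the highest. Nox4, Fmo2, Dyrk2 and Spry4 were followed by name. Nox4, an NADPH oxidase, was at 8.4, 4.94 and 6.05 CPM at day 14 and 3.45, 7.52 and 2.46 CPM at day 28 (-0.91 ± 0.36, adjusted p = 0.176), against 27.3, 30.3 and 15.6 CPM and 12.3, 9.01 and 10.6 CPM in water. Fmo2, a monooxygenase, was at 178, 225 and 181 CPM and 268, 124 and 268 CPM (0.19 ± 0.27, adjusted p = 0.75), against 75.7, 40.1 and 73.7 CPM and 102, 115 and 105 CPM in water. Dyrk2, a kinase, changed by -0.18 ± 0.17 and Spry4, a brake on receptor kinase signalling that ERK induces, by 0.04 ± 0.22, from 19.9, 12.8 and 15.9 CPM to 13.1, 18.4 and 19.3 CPM against 34.4, 30.9 and 45.7 CPM and 39.2, 52.6 and 43.2 CPM in water. For these 4 genes the days overlapped in sorafenib hearts, with adjusted p of 0.598 for Dyrk2 and 0.959 for Spry4.

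The genes nearest to a difference between the arms stayed far from the threshold. Ngdn, a protein of ribosome assembly, went from 18.5, 26.1 and 20.5 CPM at day 14 to 73.9, 69.3 and 87.9 CPM at day 28 in sorafenib hearts (1.84 ± 0.25, adjusted p = 0.00242) and from 16.7, 33.3 and 36.1 CPM to 33.6, 25.7 and 32.1 CPM in water. The difference was 1.75 ± 0.34 (edgeR adjusted p = 0.717). The acetyl-CoA transporter Slc33a1, the prostaglandin receptor Ptger4 and the zinc finger gene Zfp617 had differences of 0.85 ± 0.19, 0.8 ± 0.19 and 1.11 ± 0.29. In the other direction stood Pgf, a ligand of the VEGF receptor FLT1, at 2.7, 2.7 and 3.51 CPM and 2.07, 2.51 and 2.06 CPM in sorafenib and 1.2, 0.712 and 0.38 CPM and 3.58, 3.35 and 4.64 CPM in water, a difference of -2.81 ± 0.54 (edgeR adjusted p = 0.717). Water libraries of day 14 were the low ones there.

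Fabp4, the fatty acid binding protein of capillary endothelium and fat, was at 225, 161 and 230.1 CPM and 262, 219.7 and 216 CPM in sorafenib against 132, 131 and 119 CPM and 331, 315 and 304 CPM in water, a difference of -1.14 ± 0.23 (edgeR adjusted p = 0.717). Rbp7, a retinol binding protein of the same cells, had -2.56 ± 0.52, Cdo1, which degrades cysteine, -2.63 ± 0.59, and C1qtnf7, given above, -1.37 ± 0.32. Genes were taken here in order of p, 5 in each direction, since none passed.

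Markers of other cell types are set beside all 18174 genes tested, of which 3.32% were called and 3476 had an unadjusted p under 0.05. Short lists can hold 0 calls at that share, so 0 calls is not a result about the markers. Of 16 marker lists 11 had no gene past the threshold in edgeR's test, among them fibroblast (0 of 18; 2 at an unadjusted p under 0.05), macrophage and monocyte (0 of 22; 6) and lymphocyte markers (0 of 13; 2). DESeq2 called 1 fibroblast marker and 0 of the other 2 lists. Summed fibroblast markers were 5162 to 6178 CPM at day 14 and 4262 to 7392 CPM at day 28, and summed macrophage markers 314 to 499 CPM and 329 to 689 CPM, with the ranges overlapping. Voom called 0 in these 3 lists. The 13 Schwann and neuron markers together were 65.0 to 83.5 CPM at day 14 and 45.7 to 57.6 CPM at day 28, with Th and Nefl at 0. Tnnt3, of fast skeletal muscle, fell by 1.46, while Myh1, Myh4 and Myod1 were at 0 in all 6 sorafenib libraries. Tnnt3 lost its call in 10 of the 12 fits without 1 library, with adjusted p of up to 0.153. Mesothelial markers were 47.9 to 99.2 CPM at day 14 and 42.0 to 61.8 CPM at day 28 in sorafenib, but 63.3 to 148 CPM and 23.0 to 51.8 CPM in water; their part in the difference between the arms was not tested.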

How the data were processed

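The values analysed are whole-number counts of read pairs per gene as deposited. Per the file headers, the authors counted with featureCounts 2.0.1 in paired mode on the assembly mRatBN7.2, without a setting for strand. The submitters' processing notes name STAR as aligner and give no version. Since the kit is directional per the labels and the counting was not, reads from overlapping or antisense genes were not separated, and 5788 of the 34322 genes share exon sequence with another. The day 14 table has 2 further count columns that fit no sample, and these were left out. Totals ran from 1036483 to 26403196 counts per library.

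Groups were taken from the labels. The counts of all 12 libraries were fitted together with edgeR 4.0.16 in R 4.3.3 (filterByExpr, TMM factors, robust quasi-likelihood test, Benjamini-Hochberg adjusted p under 0.05), leaving 18174 genes. Contrasts were sorafenib day 28 minus day 14, the same for water, and their difference. SE was obtained from the log2 fold change and the F statistic, and CPM values are TMM-normalized. The members, the 28 pathway lists and the 16 marker lists were chosen with earlier results of these data known, so they are described by counts and medians and not tested as sets. Genes were named by rule: up to 10 per direction by fold among called genes that average at least 2 CPM, with 10 counts in each library of the higher group, groups apart and a symbol that is not a locus number. For the difference, where none passed, the rule takes the 5 of smallest p per direction. It adds, per list, members past the threshold and the 4 of smallest p, and genes fixed by name. Others are said to be chosen after their values were seen. Some genes that the rule names are not reported here.

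Alternatives were DESeq2 1.42.0; limma 3.58.1 voom with quality weights; RLE factors; no filter, or one of 1 CPM in 3 libraries; dispersion that is not robust; removal of the trend with exon length in each library (lowess span 0.3); sorafenib libraries alone; the replicate number as a block; and omission of 1 library at a time. Code was tested on simulated data. Replicates of a group differed by more than sampling noise, with a chi-square per gene of 8.07 or more. Sorafenib groups of the 2 days share no replicate number, so the labels pair none of their libraries. Promoter sequences are from RefSeq (GRCr8) and gene positions are those of mRatBN7.2.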

Additional observations from a re-analysis of the deposited data

How the results depend on the processing

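The count of 604 genes in sorafenib hearts was 1324 with DESeq2, 936 with voom, 383 when only sorafenib libraries were fitted and 33 with the replicate block, and 175 to 822 when 1 library was left out. The replicate block rests on few libraries, since numbers 5 and 6 occur once and drop out of the contrast, and no labels pair sorafenib libraries across days. The water count of 1546 was 2332 with DESeq2, 3963 with voom, 1024 with the replicate block and 558 to 1812 with 1 library left out. The difference between the arms was 0 genes with edgeR, 9 with DESeq2, and 0 to 1 with 1 library left out. The share of upward calls in sorafenib hearts was 68.2% with edgeR, 62.8% with DESeq2 and 73% after removal of the trend with length.

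Of 103 called genes followed, 33 passed in each of the 12 fits without 1 library, and 57 did not pass without sorafenib day 28 replicate 4. Of these genes, Hamp alone changed sign in any alternative, to -0.024 with the replicate block. Among genes that were not called, signs changed as follows. With the replicate block Ciart was at -0.80, Rbm20 at 0.025, Ttn at -0.054 and Myh7 at -0.22. With voom Ciart was at -0.086, Ttn at -0.21 and Spry4 at -0.032. With 1 library left out, Ciart ranged from -0.44 (without sorafenib day 28 replicate 4) to 0.54, Ttn from -0.17 (without day 14 replicate 5) to 0.17, Spry4 from -0.15 (without day 28 replicate 4) to 0.23 and Nppa from -0.089 (without day 28 replicate 2) to 1.71. The cause was not tested. In the shallow library, levels below a few CPM rest on single counts.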

Other observations

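A few genes outside the lists passed the threshold between day 14 and day 28 in sorafenib hearts and were picked after their values were seen. Pim1, a survival kinase, was at 7.2, 7.64 and 5.57 CPM at day 14 and 18.6, 37.6 and 21.1 CPM at day 28 (1.81 ± 0.3 on the log2 scale, edgeR adjusted p = 0.00698), with the shallow library highest, and changed by 0.6 ± 0.28 in water hearts. Hamp, which encodes the iron hormone hepcidin, was at 1.08, 1.44 and 1.51 CPM and then 4.95, 5.85 and 6.77 CPM (2.12 ± 0.39, edgeR adjusted p = 0.0103), against 0.208, 0.254 and 0.0542 CPM and 5.59, 3.1 and 3.12 CPM in water. The difference between the arms for Hamp was -2.33 ± 0.62, with an edgeR adjusted p of 0.999. Npy, the neuropeptide of sympathetic nerves, was at 0.12, 0.172 and 0.484 CPM and then 2.59, 0.835 and 1.99 CPM (2.99 ± 0.63, edgeR adjusted p = 0.0201), where the shallow library holds 1 count.

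Among regulators that fell, Creb1, the factor that binds the cAMP response element, was at 61.1, 58.5 and 61.4 CPM at day 14 and 33.5, 24.2 and 32.7 CPM at day 28 (-0.95 ± 0.14, edgeR adjusted p = 0.00349), and in water it changed by -0.77 ± 0.13 (edgeR adjusted p = 0.0035). Exons of Creb1 overlap another gene. Nr3c1, the glucocorticoid receptor, was at 202, 216 and 249 CPM and then 139, 150.3 and 129 CPM (-0.68 ± 0.17, edgeR adjusted p = 0.0395). Nr3c1 lost its call in 7 of the 12 fits without 1 library, with an adjusted p of up to 0.139 without sorafenib day 14 replicate 7, while Creb1 and Pim1 passed in each. Npy lost its call in 4 of these fits (adjusted p of up to 0.0911) and Hamp in 1 (0.0647, without sorafenib day 28 replicate 4), and without day 14 replicate 7 the log2 fold change of Npy was 3.77.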
